A study of Mus musculus with 6 samples.

Results

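The Wnt pathway genes described here are 47 of the 24062 genes counted in CD31+ckit+Vmed and CD31+ckit+Vhigh cells of the mouse aorta-gonad-mesonephros region (AGM). They were chosen by gene symbol, with earlier results of these data known. They comprise 19 Wnt ligands, 10 Frizzled receptors, the co-receptors *Lrp5* and *Lrp6*, 4 Dkk and 4 Sfrp secreted inhibitors, the destruction complex genes *Apc*, *Axin1*, *Axin2* and *Gsk3b*, and the 4 Tcf/Lef factors. The study sorted these cells from E10.5 embryos of strain C57BL/6JOlaHsd with the genotype Gata2Venus, in which the Venus fluorescent protein is expressed from the *Gata2* locus. All 6 libraries share the reporter allele, and no treatment beyond the sort is given for either fraction. The methods describe G2V/+ embryos from reporter males and C57BL/6J females, while the labels do not give the number of reporter alleles. The sorted populations share CD31, an endothelial and early hematopoietic surface protein, and ckit, the stem cell factor receptor, and differ in Venus brightness, medium in Vmed and high in Vhigh. There were 3 libraries per fraction, numbered 1 to 3 in each. Each library was made from bulk RNA, so fewer cells of a type and less RNA per cell cannot be told apart. The sources used here do not give how many embryos each library holds.

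Wnt proteins are secreted, lipid-modified ligands that bind Frizzled receptors together with *Lrp5* or *Lrp6*. In the canonical branch of the pathway this binding disables the destruction complex, a scaffold of Axin and *Apc* with the kinase *Gsk3b*, and beta-catenin then accumulates and acts with Tcf/Lef proteins on target genes such as *Axin2*. Secreted Sfrp proteins bind the ligands, and Dkk proteins act on the co-receptors. In the AGM, where hematopoietic stem cells first emerge from the aortic endothelium, Wnt signalling is known to act on that transition within a limited period.

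The libraries held between 8296831 and 12035206 counts on genes, at which 3 counts correspond to between 0.25 and 0.36 CPM (a library's gene counts scaled to the same total in each). Vhigh replicate 1 stood apart, with the fewest genes detected (10427, against 18460 in Vhigh replicate 2) and 13 members at 1 CPM or more, against 26 to 31 in the other 5 libraries. *Kit*, the gene for ckit, was at 64.1, 208 and 59.1 CPM in Vmed replicates 1, 2 and 3 and at 254, 490 and 521 CPM in Vhigh, and the fractions did not overlap although both were gated on ckit. *Gata2*, which drives the reporter, was at 50.3, 29.4 and 68.3 CPM in Vmed and at 39.2, 82.5 and 142 CPM in Vhigh, so that the ranges overlapped. *Pecam1*, the gene for CD31, was at 118 CPM or more in all 6 libraries. Endothelial markers summed to between 1077 and 5964 CPM and hematopoietic markers to between 516 and 2720 CPM per library. *Cd34* was the largest part of the hematopoietic sum, at 304 to 739 CPM in Vmed and 435 to 1501 CPM in Vhigh. *Myb*, of the same list, was at 5.97 CPM or less in Vmed and at 73.3 CPM or more in Vhigh. The sums alone therefore do not show a hematopoietic identity in every library. Markers of mesenchyme and mural cells, which a CD31 and ckit gate should remove, summed to between 2485 and 5541 CPM in Vmed and between 381 and 833 CPM in Vhigh over 14 genes, of which 13 had a fitted fold change below 0 and none was under 1 CPM in all libraries. Macrophage markers summed to between 1013 and 1758 CPM in Vmed and between 142 and 506 CPM in Vhigh over 10 genes. The part of these cells in the Wnt pathway values below was not tested.

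Of the 47 members, 44 had a count in at least 1 library. *Wnt7a*, *Wnt8a* and *Wnt16*, all genes for ligands, had 0 counts in all 6. The mean CPM was lower in Vhigh for 27 members and higher for 17. With the low-count filter 28 members remained for the test, and 19 did not. Of the 28, 11 had 10 or more counts in every library, 9 in every Vmed library but not every Vhigh library, and 2 in every Vhigh library but not every Vmed library. A member kept mainly through its Vmed counts tends to lie lower in Vhigh, so the counts over these 28 are given as a description. Not all of the 9 were lower, as *Lrp5* and *Axin1* each had a fitted log2 fold change (Vhigh over Vmed) of 0.24. In the GENCODE annotation 12 of the 28 overlap a gene on the opposite strand, namely *Wnt5a*, *Wnt5b*, *Fzd3*, *Fzd6*, *Sfrp2*, *Apc*, *Axin1*, *Axin2*, *Gsk3b*, *Lef1*, *Tcf7* and *Tcf7l1*. This overlap was judged on whole gene spans, introns included, and overlap of exons was not examined. The strand setting of the counting is not given in the sources used here. Whether counts of these members hold reads of their partners was therefore not settled.

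No member passed the test between the fractions. In the quasi-likelihood test of edgeR, with Benjamini-Hochberg adjustment over all 12688 genes tested, 0 of 28 members had an adjusted p under 0.05, beside 0% of all genes, and at an unadjusted p under 0.05 there were 0 members, beside 2.04% of all genes. Neither edgeR's likelihood ratio test nor DESeq2 called a member. The study, also with edgeR and a false discovery rate of 0.05, reported genes that differed between the fractions in both directions. Most of the genes it reported were lower in Vhigh. Why the share over all genes was 0% here was not tested. The fitted log2 fold change (Vhigh over Vmed) was below 0 for 22 of 28 members, beside 51.1% of all genes, with a median of -1.19 beside -0.02 over all genes. Leaving out Vhigh replicate 2 gave a median of -2.10 for the same 28 genes, and leaving out Vhigh replicate 1 gave -1.03. In 5 members all Vhigh libraries lay below all Vmed libraries, beside 4.71% of all genes, and these were *Fzd1*, *Fzd7*, *Dkk2*, *Axin2* and *Lef1*. *Fzd1*, *Dkk2*, *Axin2* and *Lef1* had 10 or more counts in every Vmed library but not in every Vhigh library. They may have been kept mainly through Vmed, so their separation is a description. *Fzd7* had 10 or more counts in every library. In 0 members did all Vhigh libraries lie above all Vmed libraries, beside 4.15% of all genes. With 1 library left out, fewer libraries have to separate and the share of all genes without overlap is larger. Below all Vmed libraries there were then 8, 6 and 8 members without Vmed replicate 1, 2 or 3, beside 9.84%, 7.72% and 10.7% of all genes. Without Vhigh replicate 1, 2 or 3 there were 6, 13 and 5 members, beside 6.86%, 10.5% and 8.84% of all genes.

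**Figure D1:**
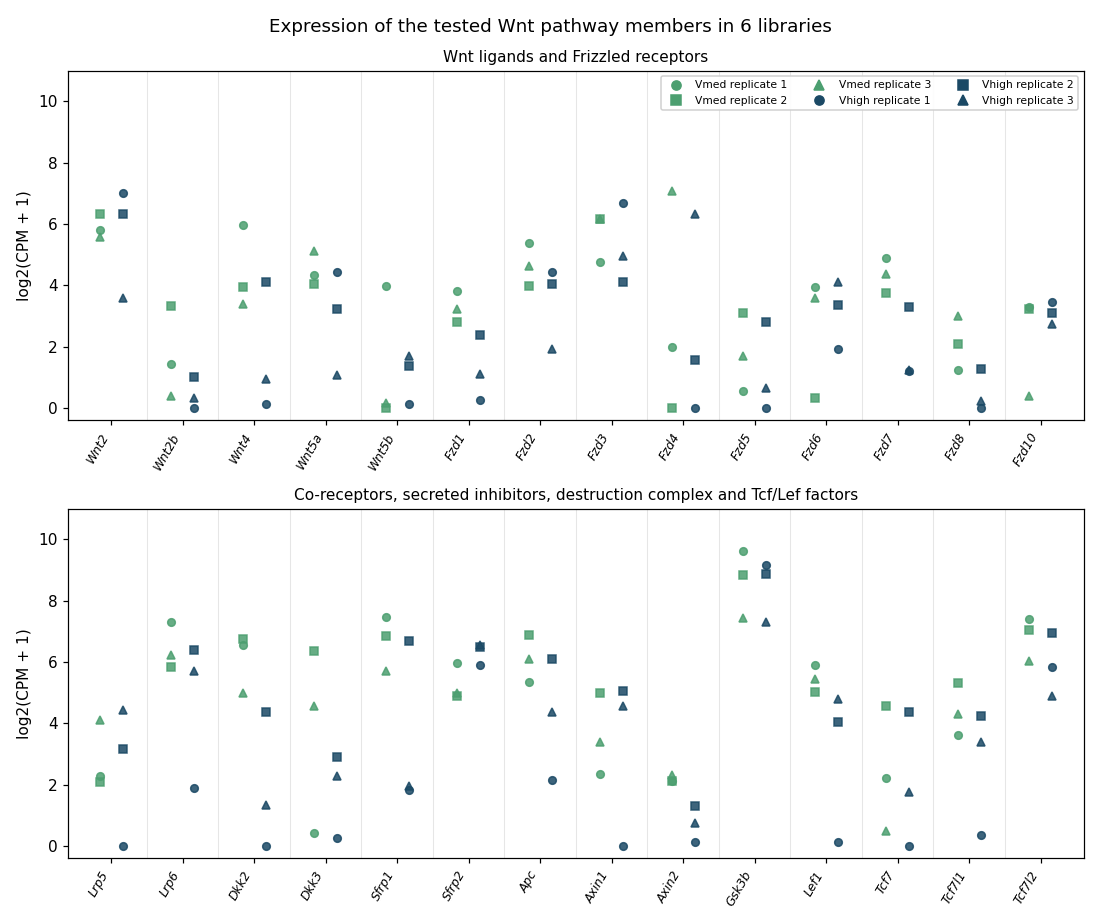
Expression of the 28 tested members as log2(CPM + 1) on the vertical axis, with 1 point per library, green for Vmed and dark blue for Vhigh, and the symbol giving the replicate number. The points of *Fzd1*, *Fzd7*, *Dkk2*, *Axin2* and *Lef1* separate by colour. *Gsk3b* lies above the other genes in all 6 libraries, and Vhigh replicate 1 is the lowest point for 17 genes.

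The stretches upstream of the transcription start sites were searched for the letters recognised by Tcf/Lef proteins, since these factors are where the canonical pathway meets its targets. The motifs CTTTGAA and CTTTGAT, which can share bases only where they lie on opposite strands, were searched on both strands in the 250 bases before each RefSeq start (GRCm38.p6). Of 32851 such windows over all genes, 7.48% held a match. RefSeq windows were matched for 31 members, and 3 of their 39 windows (7.69%) held a match, in *Dkk1*, *Wnt5b* and *Wnt11*, which is near the share over all windows. None of the 5 members whose fractions did not overlap had one. The 250 bases before the start of *Axin2* (chr11:108920099-108920348, plus strand) and of *Dkk2* (chr3:132085042-132085291, plus strand) are shown because both genes had non-overlapping fractions and *Axin2* is the target gene most used to read the pathway. Neither holds the motif in this window. The 60 bases around the match of *Wnt5b* (chr6:119449424-119449483, minus strand) are shown with the motif in capitals, its first base being 71 bases before the start of 1 of the gene's 3 RefSeq starts.
Axin2: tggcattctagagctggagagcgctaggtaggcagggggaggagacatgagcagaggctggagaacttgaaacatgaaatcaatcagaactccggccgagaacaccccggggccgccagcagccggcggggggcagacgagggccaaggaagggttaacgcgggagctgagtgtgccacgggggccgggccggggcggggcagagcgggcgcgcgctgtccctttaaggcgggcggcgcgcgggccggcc
Dkk2: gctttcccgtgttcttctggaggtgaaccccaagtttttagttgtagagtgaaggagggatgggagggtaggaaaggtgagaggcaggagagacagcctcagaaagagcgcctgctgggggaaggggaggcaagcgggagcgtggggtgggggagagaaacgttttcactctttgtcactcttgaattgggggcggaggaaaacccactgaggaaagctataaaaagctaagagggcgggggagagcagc
Wnt5b: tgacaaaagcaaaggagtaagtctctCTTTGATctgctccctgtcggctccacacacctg

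*Wnt2* was the most strongly expressed ligand per exon length in each of the 6 libraries. It averaged 29.4 RPKM over the 6 libraries, and the next ligand, *Wnt4*, averaged 4.08 RPKM. *Wnt2*, which acts in vascular and lung development, was at 54.7, 78.3 and 46.3 CPM in Vmed replicates 1, 2 and 3 and at 128, 79.9 and 10.97 CPM in Vhigh. The highest and the lowest library were both Vhigh libraries, and the Vmed values lay between them. Its log2 fold change was 0.29 (SE 0.87, n = 3 libraries per fraction, exact permutation p = 1), and leaving out Vhigh replicate 1 gave -0.57.

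*Wnt4*, known for its role in kidney and gonad development, was at 61.2, 14.5 and 9.57 CPM in Vmed and at 0.09, 16.3 and 0.91 CPM in Vhigh, with a log2 fold change of -2.51 (SE 1.71). Vhigh replicate 2 alone was within the Vmed range. *Wnt5a*, the main ligand of non-canonical signalling, was at 19.1, 15.4 and 34.1 CPM in Vmed and at 20.7, 8.29 and 1.08 CPM in Vhigh, with a log2 fold change of -1.18 (SE 1.42) and ranges that overlapped. *Wnt2b* was at 1.72, 9.04 and 0.31 CPM in Vmed and at 0, 1.01 and 0.25 CPM in Vhigh. Its value rested on Vmed replicate 2, which held 75 of its 107 counts. *Wnt5b* rested on Vmed replicate 1 in the same way, with 129 of 175 counts there and at most 2.24 CPM in any other library. Its log2 fold change was -2.03 (SE 2.53), and it turned to 4.28 when Vmed replicate 1 was left out. *Wnt5b* is among the members with a gene on the opposite strand, *Fbxl14*.

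The other 14 ligands were not kept for the test, and 11 of them had a count. Most of these were found in 1 or a few libraries. *Wnt3* and *Wnt3a*, both ligands of canonical signalling, were detected in Vhigh replicate 2 alone, with 37 and 76 counts (3.41 and 6.997 CPM). *Wnt9b*, a ligand of the mesonephric duct, was detected in Vmed replicate 3 alone, with 89 counts (9.16 CPM). *Wnt6* was detected in both libraries numbered 3, at 5.97 CPM in Vmed and 2.99 CPM in Vhigh, and in neither of the other pairs. *Wnt7b* had 36 of its 49 counts in Vhigh replicate 3, and *Wnt10b* had 13 of its 16 in Vmed replicate 1. *Wnt1*, *Wnt8b*, *Wnt9a*, *Wnt10a* and *Wnt11* had between 1 and 13 counts over all 6 libraries. At this depth, counts of 0 allow levels of up to 0.25 to 0.36 CPM in a library, and these limits cover counting error only.

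Summed over the 19 ligands, expression was 154, 118 and 106 CPM in Vmed and 149, 121 and 21.6 CPM in Vhigh. Only Vhigh replicate 3 lay below the Vmed range. The sum was therefore similar in 2 of the 3 numbered pairs, and the difference between the means (126 ± 24.9 and 97.1 ± 66.8 CPM, SD, n = 3) was less than the SD in Vhigh.

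Among the Frizzled receptors, *Fzd7* and *Fzd1* had fractions that did not overlap. *Fzd7* was at 28.5, 12.4 and 19.8 CPM in Vmed and at 1.31, 8.75 and 1.33 CPM in Vhigh, with a log2 fold change of -2.57 (SE 1.498). *Fzd1* was at 13.2, 5.91 and 8.44 CPM in Vmed and at 0.19, 4.24 and 1.16 CPM in Vhigh, with a log2 fold change of -2.45 (SE 1.88). For both receptors the Vhigh library nearest to Vmed was replicate 2. The exact permutation p was 0.1 for each, the smallest that 3 libraries against 3 allow, and the adjusted p (quasi-likelihood test of edgeR, Benjamini-Hochberg) was 0.9998 for each, as for all 28 members.

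*Fzd2* and *Fzd3* had more than 1 CPM in every library. *Fzd2* was at 41.1, 14.8 and 24.0 CPM in Vmed and at 20.4, 15.3 and 2.74 CPM in Vhigh. *Fzd3* was at 25.9, 71.0 and 71.2 CPM in Vmed and at 103, 16.2 and 30.2 CPM in Vhigh, where Vhigh was the higher in the pair numbered 1 and the lower in the other 2 pairs. Per exon length, *Fzd4*, *Fzd2* and *Fzd3* were the receptors with the highest means over the 6 libraries, at 5.39, 5.38 and 4.13 RPKM, and their ranges over libraries overlapped.

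*Fzd4*, the receptor for norrin in vascular development, followed the replicate number and not the fraction. It was at 133 CPM in Vmed replicate 3 and 79.5 CPM in Vhigh replicate 3, and at 2.97 CPM or less in the other 4 libraries. The mean of 6 libraries therefore rests on 2 of them. Its log2 fold change was -0.76 (SE 2.32), and leaving out Vmed replicate 3 gave 4.13.

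*Fzd8* was at 1.37, 3.25 and 6.90 CPM in Vmed and at 0, 1.38 and 0.17 CPM in Vhigh, with 1 Vhigh library within the Vmed range. *Fzd5* did not exceed 7.59 CPM in any library. *Fzd6* ranged from 0.24 to 14.3 CPM in Vmed and from 2.81 to 16.3 CPM in Vhigh, and *Fzd10* from 0.31 to 8.81 CPM and from 5.73 to 10.04 CPM. The fitted differences of *Fzd6* and *Fzd10* were 0.06 (SE 1.80) and 0.40 (SE 1.83). *Fzd9*, not kept for the test, had 104 of its 105 counts in Vhigh replicate 3. The Frizzled sum was 137, 124 and 277 CPM in Vmed and 138, 70.3 and 146 CPM in Vhigh, and the ranges overlapped.

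The co-receptor *Lrp6* was at 159, 56.4 and 74.1 CPM in Vmed and at 2.72, 82.3 and 51.8 CPM in Vhigh, with a log2 fold change of -1.21 (SE 0.99). Vhigh replicate 1 stood far below the other 5 libraries. Its paralogue *Lrp5* was at 3.89, 3.25 and 16.1 CPM in Vmed and at 0, 8.01 and 20.5 CPM in Vhigh, with a log2 fold change of 0.24 (SE 2.06). For *Lrp5* both libraries numbered 3 lay above the other 4. Per exon length *Lrp6* averaged 5.19 RPKM and *Lrp5* 0.89 RPKM, and *Lrp6* was higher within each of the 6 libraries.

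**Figure D2:**
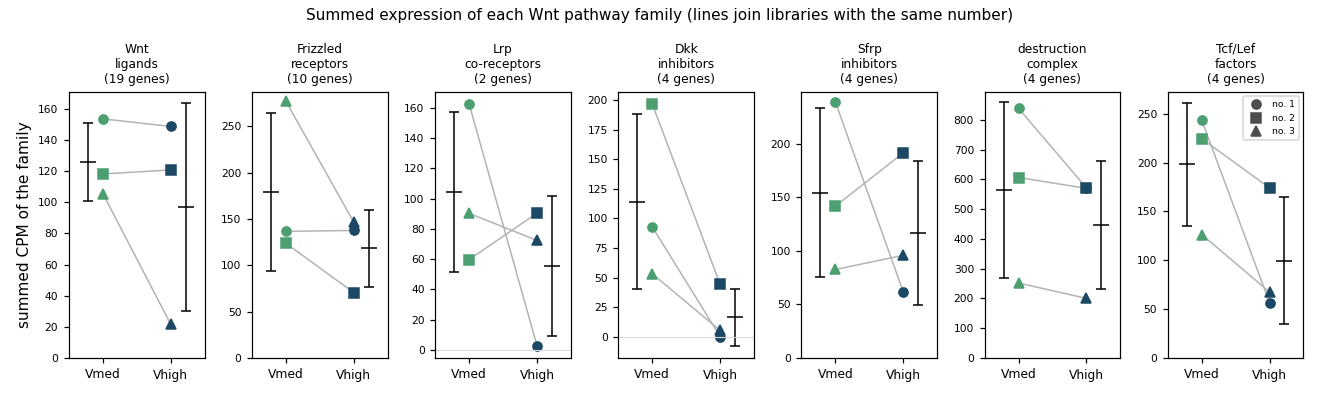
Summed CPM of each family (vertical axis, each panel with its own scale) in the Vmed and Vhigh libraries, with grey lines joining libraries that share a replicate number and black bars giving the mean and SD of 3 libraries. The Dkk sum lies between 53.2 and 197 CPM in Vmed and between 0.19 and 44.4 CPM in Vhigh, while the other 6 families overlap between the fractions.

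The Dkk inhibitors were the family whose summed expression did not overlap between the fractions, at 92.8, 197 and 53.2 CPM in Vmed and 0.19, 44.4 and 5.32 CPM in Vhigh. *Dkk2* made 54.8% to 99.6% of this sum in Vmed and 0% to 44.4% in Vhigh. This gene, which encodes a Dickkopf protein that can act on *Lrp6* in either direction, was at 92.4, 108 and 30.6 CPM in Vmed and at 0, 19.7 and 1.496 CPM in Vhigh. It had the largest fitted difference of the 28 members, with a log2 fold change of -3.62 (SE 1.499) and an unadjusted p of 0.053 (adjusted p = 0.9998, quasi-likelihood test of edgeR, Benjamini-Hochberg), and the exact permutation p was 0.1. Leaving out 1 library at a time gave between -6.72 (without Vhigh replicate 2) and -3.04 (without Vhigh replicate 1). *Dkk2* was lower in Vhigh in all 3 numbered pairs.

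*Dkk3*, a divergent member of the family, was at 0.34, 80.4 and 22.6 CPM in Vmed and at 0.19, 6.54 and 3.82 CPM in Vhigh, with a log2 fold change of -3.36 (SE 1.73). It was near 0 in both libraries numbered 1, so that the ranges overlapped. *Dkk1*, an inhibitor that is itself a known target of the pathway, was not kept for the test. It was found in the 2 libraries numbered 2 alone, with 67 counts (8.08 CPM) in Vmed and 190 counts (17.5 CPM) in Vhigh, where it was the higher in Vhigh. *Dkk4* had 4 and 7 counts in the same 2 libraries and 0 elsewhere.

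The Sfrp inhibitors *Sfrp1* and *Sfrp2* had fitted differences of opposite sign, and neither passed the test. *Sfrp1* was at 178, 113 and 51.6 CPM in Vmed and at 2.53, 101 and 2.91 CPM in Vhigh, with a log2 fold change of -1.88 (SE 1.22). Vhigh replicate 2 was within the Vmed range and the other 2 Vhigh libraries were far below it. *Sfrp2* was at 61.0, 28.6 and 30.8 CPM in Vmed and at 58.9, 89.3 and 92.8 CPM in Vhigh, with a log2 fold change of 0.95 (SE 0.71, exact permutation p = 0.2), the highest of the 28 members. Here 1 Vhigh library was within the Vmed range, and the pair numbered 1 differed by -0.05 in log2(CPM + 1), against 1.61 and 1.56 in the pairs numbered 2 and 3. Within each library, *Sfrp2* made 20.2% to 37.3% of the summed Sfrp CPM in Vmed and 46.7% to 97.0% in Vhigh. The share was 95.9% and 97.0% in Vhigh replicates 1 and 3, where *Sfrp1* was at 2.53 and 2.91 CPM. No value over all genes is set beside this share, so it is a description. Per exon length *Sfrp2* (28.0 RPKM) and *Sfrp1* (17.1 RPKM) were behind only *Gsk3b* and *Wnt2* among the 47 members in their mean over the 6 libraries, and the ranges of these 4 genes over libraries overlapped. *Sfrp4* and *Sfrp5* had 6 and 2 counts over all libraries.

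In the destruction complex, *Axin2* had fractions that did not overlap. *Axin2*, a scaffold protein and feedback inhibitor that canonical signalling itself induces, was at 3.32, 3.37 and 4.01 CPM in Vmed and at 0.09, 1.47 and 0.66 CPM in Vhigh. These are 29, 28 and 39 counts in Vmed and 1, 16 and 8 counts in Vhigh, so that the level was low in both fractions. The log2 fold change was -2.37 (SE 2.02, exact permutation p = 0.1).

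*Gsk3b*, the kinase of the complex, was the member with the highest mean level per exon length (44.3 RPKM). It was at 792, 455 and 171 CPM in Vmed and at 568, 468 and 157 CPM in Vhigh, with a log2 fold change of -0.28 (SE 0.65). The replicate number separated its values further than the fraction did, with the pair numbered 1 highest and the pair numbered 3 lowest in both fractions. *Apc*, the scaffold lost in many intestinal tumours, was at 39.9, 118 and 67.1 CPM in Vmed and at 3.47, 68.1 and 19.7 CPM in Vhigh, and was lower in Vhigh in all 3 pairs, with a log2 fold change of -1.43 (SE 1.00). *Axin1* was at 4.12, 30.6 and 9.57 CPM in Vmed and at 0, 32.5 and 22.7 CPM in Vhigh, with a log2 fold change of 0.24 (SE 1.84) that turned to -0.39 without Vhigh replicate 2.

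All 4 Tcf/Lef factors had a fitted log2 fold change below 0. *Lef1*, an activating member of the family, was at 59.4, 31.5 and 42.4 CPM in Vmed and at 0.09, 15.6 and 26.8 CPM in Vhigh, and the fractions did not overlap. Its log2 fold change was -1.73 (SE 1.42, exact permutation p = 0.1). The value of Vhigh replicate 1 rests on 1 count, and without this library the log2 fold change was -1.15.

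*Tcf7l2* was the factor with the highest mean level per exon length (10.9 RPKM). It was at 169, 132 and 64.7 CPM in Vmed and at 56.1, 121 and 28.8 CPM in Vhigh, lower in Vhigh in all 3 pairs, with a log2 fold change of -0.92 (SE 0.68). *Tcf7l1*, mostly a repressor, was at 11.2, 38.4 and 18.7 CPM in Vmed and at 0.28, 17.9 and 9.39 CPM in Vhigh, again lower in all 3 pairs, with a log2 fold change of -1.42 (SE 1.53). *Tcf7* was high in the pair numbered 2 (22.9 and 19.5 CPM) and at 3.66 CPM or less elsewhere, and the sign of its fitted difference changed when Vmed replicate 2, Vhigh replicate 1 or Vhigh replicate 3 was left out. Summed over the family, expression was 244, 225 and 126 CPM in Vmed and 56.5, 174 and 67.4 CPM in Vhigh, lower in Vhigh in all 3 pairs but with overlapping ranges.

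**Figure D3:**
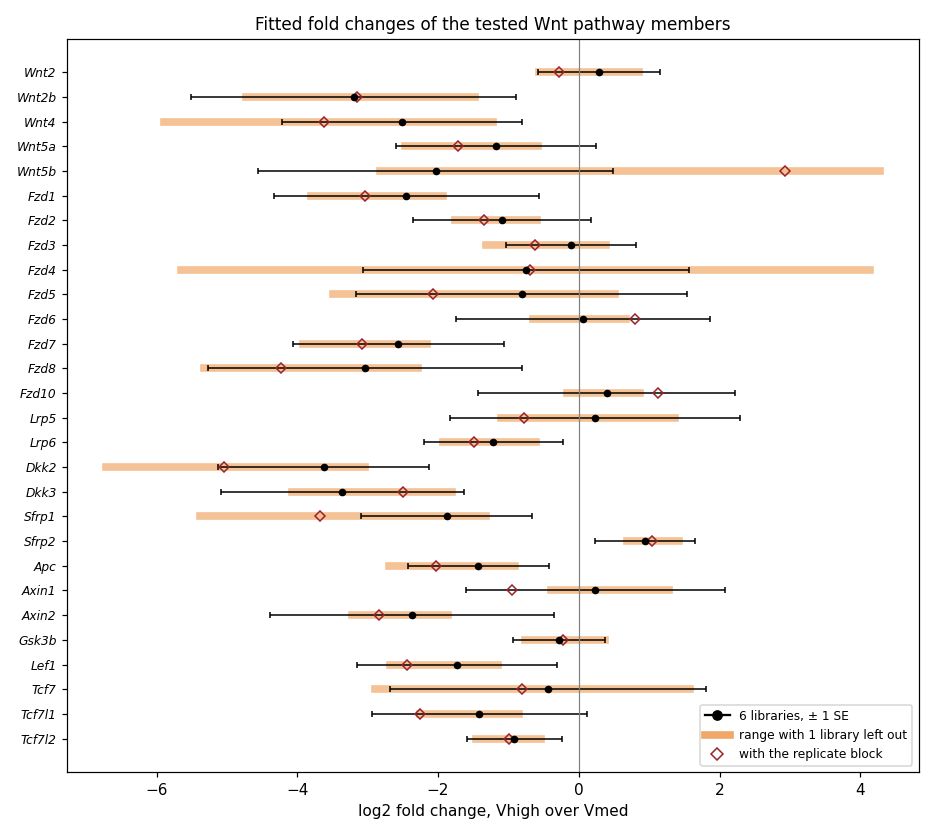
Fitted log2 fold changes (horizontal axis, Vhigh over Vmed) of the 28 tested members, with bars of 1 SE, an orange band for the range when 1 library is left out, and a red diamond for the fit with the replicate number as a block. Most points lie below 0, with *Dkk2* lowest at -3.62 and *Sfrp2* highest at 0.95, and the bands of 11 members reach both sides of 0.

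Compared within the numbered pairs, 13 of 28 members were lower in Vhigh in all 3 pairs, beside 15.4% of all genes, and 0 were higher in all 3, beside 15.2%. The 13 were *Wnt2b*, *Fzd1*, *Fzd5*, *Fzd7*, *Fzd8*, *Dkk2*, *Dkk3*, *Sfrp1*, *Apc*, *Axin2*, *Lef1*, *Tcf7l1* and *Tcf7l2*. *Wnt2b* had 3 counts in each library numbered 3, and *Dkk3* had 3 counts in Vmed and 2 in Vhigh in the pair numbered 1. These levels are under the 0.36 CPM resolved at this depth, so the direction in those pairs is not resolved. The pairs differed in size. The median difference in log2(CPM + 1) over the 28 members was -2.00 in the pair numbered 1, -0.19 in the pair numbered 2 and -1.09 in the pair numbered 3, beside -0.34, 0.17 and 0.04 over all genes. Without the pair numbered 1, 15 members were lower and 5 were higher in both remaining pairs, beside 22.9% and 33.6% of all genes. With the replicate number as a block, the quasi-likelihood test of edgeR called 0 members after Benjamini-Hochberg adjustment, 24 of 28 had a log2 fold change below 0, beside 54.4% of all genes, and the median was -1.61, beside -0.11. *Dkk2*, *Sfrp1* and *Apc* had an unadjusted p under 0.05 in this fit (0.044, 0.040 and 0.046), beside 4.16% of all genes.

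**Figure D4:**
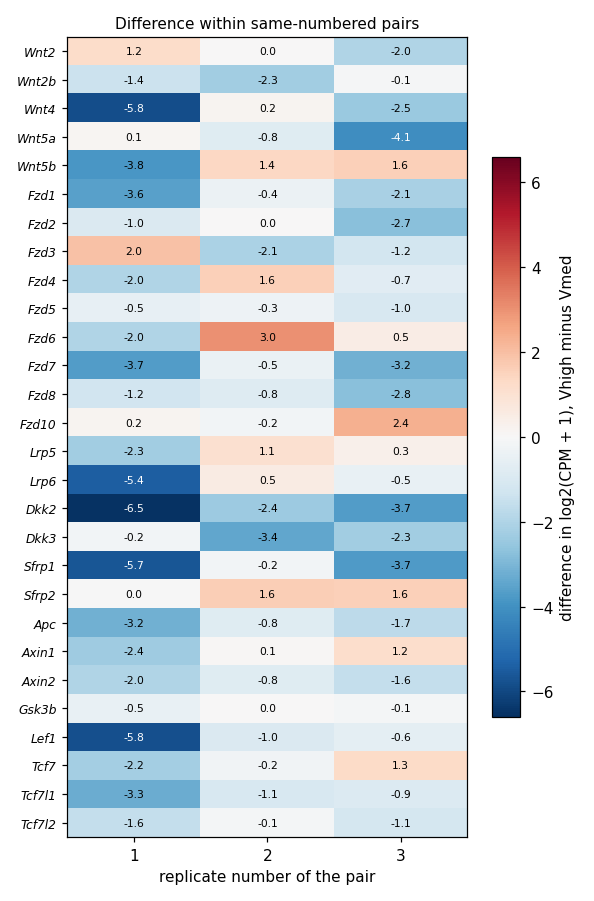
Difference in log2(CPM + 1), Vhigh minus Vmed, for the 28 tested members (rows) in the pairs numbered 1, 2 and 3 (columns), with blue for lower and red for higher in Vhigh and the value printed in each cell. The column of pair 1 holds the deepest blue, down to -6.55 for *Dkk2*, and the column of pair 2 is nearest to 0, with a median of -0.19.

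Vhigh replicate 1, the library with the fewest genes detected, had the lowest level of the 6 libraries for 17 of the 28 members, beside 37.8% of all genes. Without it, 22 of the same 28 had a fitted log2 fold change below 0, beside 49.9% of all genes. Their median was then -1.03, against -1.19 with all libraries. The mesenchyme and mural markers were lower in Vhigh in each of the 3 pairs, at 2485 against 833, 4962 against 686 and 5541 against 381 CPM, and their part in the Wnt pathway differences was not tested.

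Several members followed the replicate number. In 8 of the 28, both libraries of 1 number lay above the other 4, beside 36% of all genes, so the share was not higher among the members. They were *Fzd10* and *Gsk3b* for number 1, *Fzd5*, *Apc*, *Axin1* and *Tcf7* for number 2, and *Fzd4* and *Lrp5* for number 3. Among members not kept for the test, *Dkk1* and *Dkk4* were counted in the libraries numbered 2 alone and *Wnt6* in those numbered 3 alone, with 0 counts in the other 4 libraries. The labels do not say what a shared number stands for. The share of counts on *Rn45s*, a ribosomal RNA gene, was 10.5% and 7.47% in the libraries numbered 3 and 1.53% or less in the others.

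Genes of the pathway outside these families were described in the same way. Of a list of 80 secretion factors, secreted modulators, surface proteins, cytoplasmic and nuclear components, 79 were found and 64 tested, and 0 passed the test in either direction in the quasi-likelihood test of edgeR with Benjamini-Hochberg adjustment. Their median log2 fold change was -0.36, beside -0.02 over all genes, with 41 of 64 below 0, beside 51.1% of all genes. By group the median was -1.11 for the secretion and secreted genes, -0.63 for the surface proteins, -0.23 for the cytoplasmic and 0.05 for the nuclear components. *Gpc3*, *Tspan12*, *Rnf43* and *Btrc* were the 4 of 64 with an unadjusted p under 0.05, beside 2.04% of all genes. In 3 of the 64 all Vhigh libraries lay below all Vmed libraries and in 2 they lay above, beside 4.71% and 4.15% of all genes, so that neither share stood out from all genes. *Gpc3*, a glypican that binds Wnt and other ligands, was at 1901, 577 and 610 CPM in Vmed and at 497, 238 and 106 CPM in Vhigh, without overlap. *Tspan12*, a partner of *Fzd4*, had a log2 fold change of -2.35 (SE 0.84) with overlapping ranges.

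*Rnf43*, the ubiquitin ligase that removes Frizzled receptors from the surface and is a target of the pathway, was at 0, 0.12 and 0 CPM in Vmed and at 5.35, 3.50 and 3.82 CPM in Vhigh. It had 1 count over the 3 Vmed libraries and was kept for the test through its Vhigh counts alone, so its difference is a description. *Btrc*, the ubiquitin ligase subunit that recognises beta-catenin, was at 25.2, 69.4 and 58.4 CPM in Vmed and at 308, 98.0 and 73.7 CPM in Vhigh, also without overlap. *Sost* and *Cthrc1*, both genes for secreted modulators, had all Vhigh libraries below all Vmed libraries, with log2 fold changes of -2.83 (SE 2.21) and -2.44 (SE 1.49).

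*Ctnnb1*, the gene for beta-catenin, was at 558, 495 and 806 CPM in Vmed and at 271, 462 and 897 CPM in Vhigh, with a log2 fold change of -0.23 (SE 0.52). *Wls*, which carries Wnt proteins to the cell surface, had a log2 fold change of -0.87 (SE 0.51). *Porcn*, the enzyme that attaches the lipid to Wnt proteins, was at 2.86, 1.69 and 0.93 CPM in Vmed and at 45.9, 5.06 and 0.83 CPM in Vhigh, with a log2 fold change of 3.30 (SE 1.80) and 1 Vhigh library below the Vmed range.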

How the data were processed

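RNA of sorted CD31+ckit+Vmed and CD31+ckit+Vhigh cells was amplified by SMARTer chemistry and sequenced as single reads of 50 bases. Per the labels, TopHat, Bowtie 1.1.2 and HTSeq were used on GRCm38/mm10, and the authors deposited raw read counts per gene. The annotation and the strand setting are not given in the sources used here. Lines that name no gene (unassigned and ambiguous alignments, 15.8 to 156 unassigned per 100 gene counts) were left out. Groups and numbers came from the labels.

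CPM were computed from gene totals, and RPKM from exon-union lengths of GENCODE M21. Genes were kept by filterByExpr, scaled by TMM and tested with edgeR 4.0.16 in R 4.3.3 (quasi-likelihood test, fraction as the only term, Benjamini-Hochberg at 0.05). The test was checked on data simulated with less spread than these libraries have. The check therefore does not show which changes it can find here. SE are on the log2 scale. Exact two-sided permutation tests used log2(CPM + 1) over 20 arrangements. Nothing in the labels says whether libraries are separate embryo pools, so p-values measure only the spread between these libraries. Alternatives were RLE and library-size scaling, other filters, the likelihood ratio test, DESeq2 1.42.0, thinning to 8296831 counts, a replicate block and each library left out. Deviations from the fraction means correlated at r = 0.21, 0.21 and 0.39 across genes between same-numbered libraries, so the numbers were taken to pair the libraries. The correlations between other libraries were below 0. Subtracting the fraction means pushes them down when the same-numbered ones are positive, so they add no support.

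Members that could be tested were described in every library where the results turn on them, the rest by ranges. Other pathway genes were named for an unadjusted p under 0.05 or non-overlapping fractions, with Ctnnb1, Porcn and Wls always named. The members and lists were chosen with earlier results of these data known. Marker lists of endothelial, hematopoietic, coelomic or mesonephric, neural, germ, mast and erythroid cells had medians of -0.74, 1.14, -1.91, -1.68, 2.00, 1.26 and -0.73 in log2 fold change over the genes tested, and those of mesenchyme or mural cells and macrophages -2.61 and -3.39. The germ and mast medians rest on 3 of 8 and 2 of 6 listed genes, with 1 tested gene of each list below 0. Adgre1 was matched by its older symbol Emr1, and Tle5 was not matched.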

Additional observations from a re-analysis of the deposited data

How the results depend on the processing

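No member was called under any setting. Genes called over all genes were 0 with the quasi-likelihood test and 37 with a filter at 1 count, 21 with the likelihood ratio test, 51 with DESeq2, and 0 to 1 when 1 library was left out. RLE, library-size scaling, other filters and other tests kept the direction of all 28 tested members, and the replicate block kept that of 24, giving Wnt2 -0.28, Wnt5b 2.93, Lrp5 -0.78 and Axin1 -0.94, and changed no call. Leaving out 1 library kept 17 directions. The other 11 ranged as log2 fold change from -0.57 to 0.85 for Wnt2, -2.82 to 4.28 for Wnt5b, -1.32 to 0.39 for Fzd3, -5.66 to 4.13 for Fzd4, -3.49 to 0.51 for Fzd5, -0.65 to 0.67 for Fzd6, -0.17 to 0.87 for Fzd10, -1.10 to 1.36 for Lrp5, -0.39 to 1.28 for Axin1, -0.76 to 0.37 for Gsk3b and -2.89 to 1.58 for Tcf7. Members with non-overlapping fractions in either direction numbered 5 with all libraries, beside 4.71% of all genes lower and 4.15% higher in Vhigh. They numbered 7 with TMM-adjusted CPM and 6 with thinned counts, for which no share over all genes is given. With 1 library left out they numbered 6 to 13, beside 16.1% to 19.7% of all genes. The cause was not tested. Chosen after seeing the data, members higher in all pairs counted 1 with TMM-adjusted CPM, and members lower in all pairs 15. With thinned counts 12 were lower. Shares over all genes are not given for these settings. In the pairs left, 5, 1 and 1 were higher without number 1, 2 or 3, beside 33.6%, 22.1% and 24.3% of all genes. Lower in the pairs left were 15, 18 and 14, beside 22.9%, 28.1% and 26.8%. Levels under 0.36 CPM are not resolved at this depth.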
